A study of Mus musculus with 18 samples.

Results

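The 44 genes described here serve DNA replication and mitosis, and they were followed in CD4+ effector T cells recovered from the gut and the spleen. They were taken from a named list, 17 with a main role in S phase and 27 with a main role in G2 and mitosis, out of 34162 genes in the table, and all 44 were found and tested. Each library came from about 500 sorted cells, taken at week 3 after transfer of T cells into Rag-deficient mice, which lack T and B cells. The groups were CAR-deficient cells, C57BL/6 with Nr1i3-/-, and wild type cells, C57BL/6 with the congenic surface marker CD45.1. CAR is the nuclear receptor encoded by Nr1i3, which senses foreign compounds. Each genotype was sampled in small intestinal lamina propria (siLP), colonic lamina propria (cLP) and spleen, with 3 libraries in each of the 6 groups. The design asks how the genotypes differ in each organ and how the organs differ.

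Wild type cells differ from CAR-deficient cells by the congenic marker as well, and all transferred cells shared the Rag-deficient setting. The count columns name CD45.1 positive and negative cells, so the CAR-deficient columns were identified as the remaining, negative ones. Whether the libraries in a group stem from separate animals is not stated, so a p-value covers only the spread among the libraries given. Each group's libraries are named a, b and c after the order of their columns, since no label numbers them.

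Cells that divide first switch on G1/S cyclins, licensing and replication genes, largely under E2F factors, and copy their DNA with the MCM helicase, the PCNA clamp and enzymes of nucleotide synthesis. In G2 and mitosis a later wave of genes, held back in resting cells by the DREAM complex at CHR elements and driven with CCAAT boxes, builds the spindle and kinetochores, activates CDK1 with B-type cyclins and triggers anaphase through the anaphase-promoting complex. Effector T cells transferred into lymphopenic hosts are known to divide strongly.

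Promoters are shown because the S phase and mitotic classes, contrasted throughout, are known for different elements. RefSeq promoter sequences on GRCm38.p6, 300 bases from 250 before to 50 after the start, matched 36 of the 44 members. The CHR letters TTTGAA, searched on both strands with overlapping matches each counted, occurred in 15 of 22 mitotic members (68.2%), in 2 of 14 S phase members (14.3%) and in 17.9% of all 32851 promoters. The E2F letters TTTNNCGC occurred in 6 of 14 S phase members (42.9%), in 1 of 22 mitotic members (4.55%, Cdk1) and in 5.17% of all promoters. CCAAT occurred in 19 of 22 mitotic members (86.4%), in 9 of 14 S phase members (64.3%) and in 37.4% of all promoters. The 36 members have 38 promoter sequences, and a site in both Prc1 promoters was counted once. Of the 19 CHR matches in mitotic members, 14 lay within 60 bases of the start, in a window that ends 50 bases after it. The share at this distance over all promoters was not counted. A match describes letters in the window and is no evidence of a bound factor.

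The 250 bases before the start are printed 5′ to 3′ on the strand of the gene, for 4 mitotic members with CHR letters in capitals. Ube2c (chr2:164769679-164769928, plus strand), Mki67 (chr7:135716380-135716629, minus strand) and Ccnb2 (chr9:70421555-70421804, minus strand) are 3 members that fell in colon cells below, and Cdc20 (chr4:118437344-118437593, minus strand) carries its match close to the start. Ccnb1 and Birc5, which also fell in colon cells, had no CHR letters in their promoter sequences. A further Ccnb2 match, 5 bases after the start, lies outside the printed bases. In Ube2c the capitals are the form on the opposite strand. The S phase members Mcm5 (chr8:75109259-75109508, plus strand) and Mcm6 (chr1:128359706-128359955, minus strand) follow with E2F letters in capitals, where each 12-base run holds a pair of overlapping matches on opposite strands.
Ube2c: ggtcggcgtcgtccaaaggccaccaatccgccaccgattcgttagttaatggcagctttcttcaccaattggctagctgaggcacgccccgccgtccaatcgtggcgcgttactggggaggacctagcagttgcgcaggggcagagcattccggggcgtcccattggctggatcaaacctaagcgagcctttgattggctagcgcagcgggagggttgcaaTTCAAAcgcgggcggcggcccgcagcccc
Mki67: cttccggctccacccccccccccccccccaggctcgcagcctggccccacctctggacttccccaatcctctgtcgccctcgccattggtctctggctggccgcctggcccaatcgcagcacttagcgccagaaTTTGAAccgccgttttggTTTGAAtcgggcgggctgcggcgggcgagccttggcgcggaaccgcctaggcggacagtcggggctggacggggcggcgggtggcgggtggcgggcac
Cdc20: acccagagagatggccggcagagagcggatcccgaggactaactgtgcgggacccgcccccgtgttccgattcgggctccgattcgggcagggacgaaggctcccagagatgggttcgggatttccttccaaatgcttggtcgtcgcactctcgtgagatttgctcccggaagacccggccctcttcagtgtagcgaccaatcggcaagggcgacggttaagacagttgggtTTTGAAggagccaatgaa
Ccnb2: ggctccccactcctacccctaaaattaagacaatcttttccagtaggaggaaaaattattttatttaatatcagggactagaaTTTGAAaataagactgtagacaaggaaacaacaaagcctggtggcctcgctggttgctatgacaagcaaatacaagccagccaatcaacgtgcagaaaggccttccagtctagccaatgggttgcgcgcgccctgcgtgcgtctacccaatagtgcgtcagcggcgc
Mcm5: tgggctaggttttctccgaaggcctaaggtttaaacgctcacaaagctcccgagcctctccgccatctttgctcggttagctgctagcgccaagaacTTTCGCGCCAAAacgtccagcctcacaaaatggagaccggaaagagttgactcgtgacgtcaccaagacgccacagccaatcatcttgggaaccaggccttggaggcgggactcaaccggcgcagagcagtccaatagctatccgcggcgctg
Mcm6: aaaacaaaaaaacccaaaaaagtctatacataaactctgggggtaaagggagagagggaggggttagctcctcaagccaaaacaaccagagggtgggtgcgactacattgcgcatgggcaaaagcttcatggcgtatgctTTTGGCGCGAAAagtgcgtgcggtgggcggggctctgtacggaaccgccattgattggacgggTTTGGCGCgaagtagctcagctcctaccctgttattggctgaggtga

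**Figure D1:**
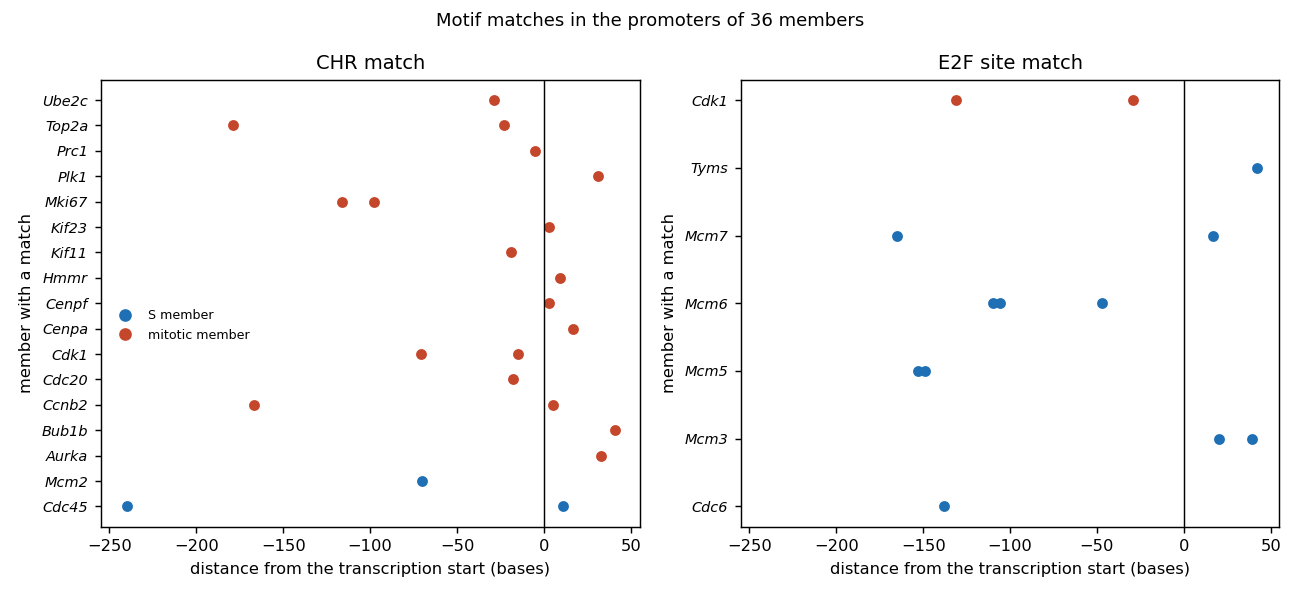
Positions of CHR and E2F letter matches (horizontal axis: distance from the transcription start in bases, 0 at the start) in the promoters of members with at least 1 match, 1 row per gene, coloured by class. CHR matches fall mainly in mitotic members, 14 of 19 of theirs within 60 bases of the start, and E2F matches mainly in S phase members.

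Total counts per library ran from 19605135 to 25436389. The 7 T cell markers summed to 6580 to 14300 CPM (reads of a gene relative to the scaled total of its library) throughout. Cd8a did not exceed 2.44 CPM and Cd8b1 did not exceed 11.6 CPM. The 6 B and plasma cell markers summed to at most 38.5 CPM, in a cLP CAR-deficient library. In each group, library a stood apart, with 15466 to 16128 genes detected against 17013 to 18819 in b and c, and with 3.70% to 3.98% mitochondrial counts against 2.23% to 3.22%. Library a also had the lowest value of its group for 23 to 38 of the 44 members. The 4 erythroid markers summed to at most 11.8 CPM in gut libraries and to 59.5, 120 and 1020 CPM in spleen CAR-deficient and 138, 848 and 1010 CPM in spleen wild type libraries, from lowest to highest. The 3 spleen libraries highest in these markers were CAR-deficient b, wild type a and wild type b. The b libraries were also the highest of their groups for 40 and 37 members, while wild type a was the lowest of its group for 31. Epithelial markers were highest in cLP CAR-deficient library b (265 CPM) and myeloid markers in siLP wild type libraries (84.4 to 159 CPM). Nr1i3 had 9.49 CPM in siLP CAR-deficient library a and at most 1.66 CPM elsewhere, and since the deleted exons are not given in the sources used here, its count does not check that label.

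Per kilobase of annotated exon, which allows genes to be compared, Stmn1, which encodes the microtubule-destabilising protein stathmin, had the highest median level of the members, 357 CPM per kilobase over the 18 libraries. It was followed by Pcna, the sliding clamp of DNA polymerases (176 CPM per kilobase), Ccnb2, which encodes cyclin B2 (95), Birc5, which encodes the chromosomal passenger protein survivin (76.6), Rrm2, the regulated subunit of ribonucleotide reductase (62.5), and Ube2c, the ubiquitin-conjugating enzyme of the anaphase-promoting complex (51.9). Nek2, a centrosome kinase (0.683 CPM per kilobase), and Ung, the uracil DNA glycosylase (0.265), were lowest. Neighbours in this order overlapped, since Ccnb2 ranged from 22 to 226 and Birc5 from 28.2 to 175 CPM per kilobase. The length is that of all annotated exons together, so the order is approximate for genes with long exons that these cells do not use. Only a few members were at 0 in any library: Kif20a in 3, Cdc45 in 2, and Aurka, Aurkb and Plk1 in 1 each. The biological coefficient of variation, the spread between libraries of a group that edgeR fitted per gene, was smallest for Pcna (0.243) and highest for Kif20a (1.48), with medians of 0.507 over S phase members, 0.569 over mitotic members and 0.642 over all tested genes.

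**Figure D2:**
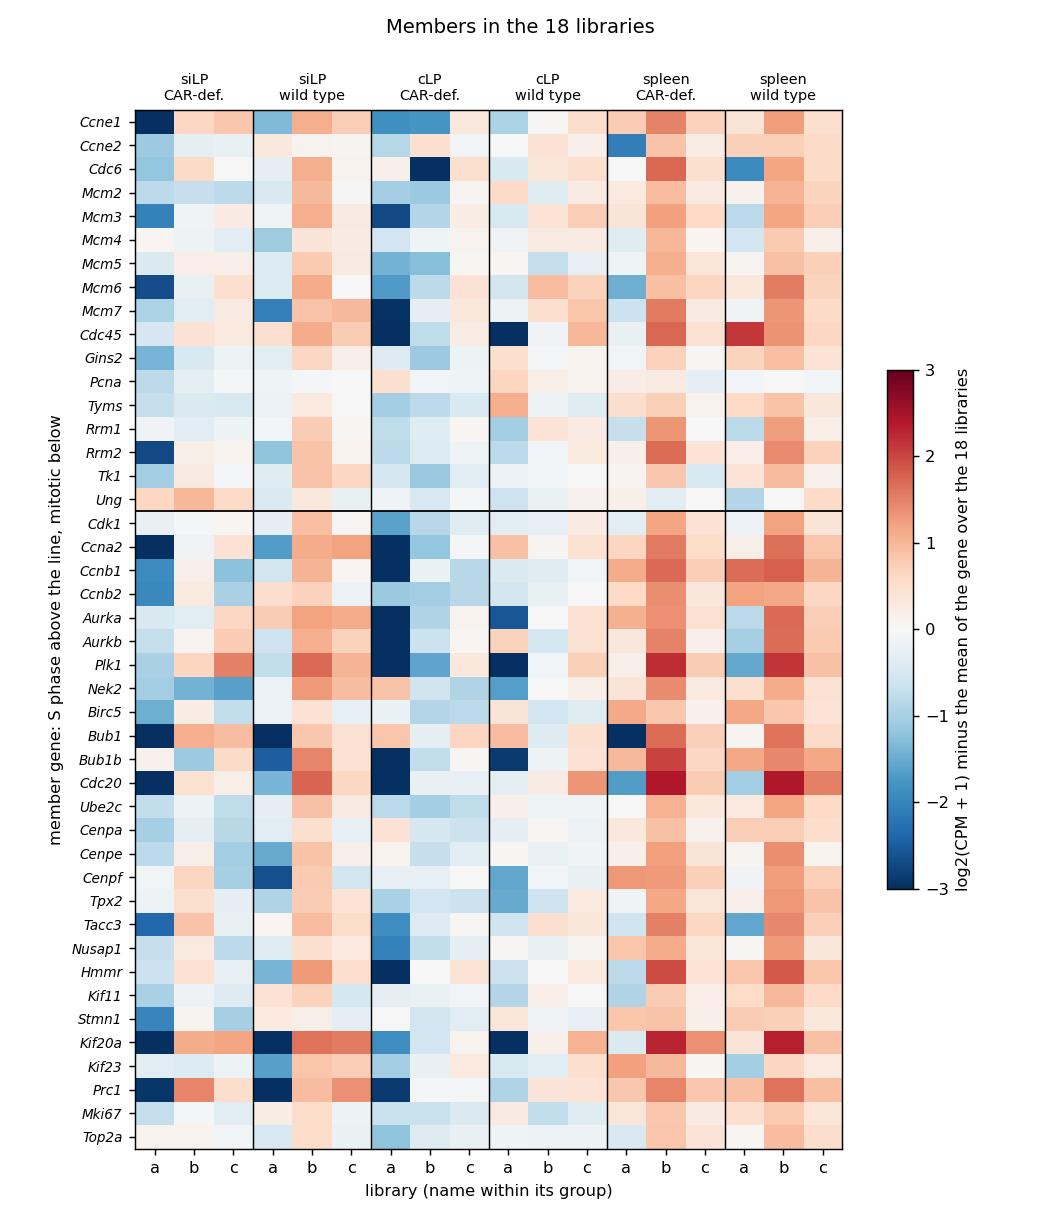
Heat map of log2(CPM + 1) minus the mean of each gene over the 18 libraries (colour, with values beyond 3 in either direction drawn at 3), with S phase members above the line and mitotic members below it and libraries by group along the horizontal axis. Spleen b libraries are highest for most members, and library a is lowest for most members in each group.

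Several mitotic genes fell in colon cells relative to spleen cells. With both genotypes averaged (6 libraries per organ), edgeR's quasi-likelihood test with Benjamini-Hochberg adjustment over 14876 genes called 5 of 44 members lower in cLP, all of them mitotic, and none higher, where 0.35% of all tested genes were called lower. None of the 17 S phase members passed, although 6 of them and 14 mitotic members had an unadjusted p under 0.05, against 4.67% of all genes in that direction. The log2 fold change was below 0 for 43 of 44 members, against 49.8% of all genes, with a median of -1.17 over mitotic members, -0.72 over S phase members and 0.00 over all genes. In libraries of bulk cells, fewer dividing cells and less of these transcripts per dividing cell cannot be told apart.

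The cyclins that activate CDK1 at mitotic entry were among the 5. For Ccnb2 (ENSMUSG00000032218, chr9:70407692-70421547, minus strand) the lowest, median and highest values were 59.8, 80.6 and 131 CPM in cLP and 166, 248 and 346 CPM in spleen. Every cLP library lay below every spleen library, with a log2 fold change (± standard error, here and below) of -1.57 ± 0.32 (edgeR, adjusted p = 0.0132). Ccnb1 (ENSMUSG00000041431, chr13:100778650-100786570, minus strand), which encodes cyclin B1, had 4.31, 50.5 and 63.8 CPM in cLP and 112, 181 and 237 CPM in spleen. The organs again did not overlap, and the log2 fold change was -2.05 ± 0.50 (edgeR, adjusted p = 0.0354). Their partner kinase Cdk1 had 27.2, 66.8 and 101 CPM in cLP and 68.5, 114 and 199.7 CPM in spleen, with overlapping libraries and -1.06 ± 0.32 (edgeR, adjusted p = 0.0861). Ccna2, which encodes cyclin A2 of S phase and G2, had 3.76, 51.5 and 94.6 CPM in cLP and 58.3, 86.5 and 162 CPM in spleen, a log2 fold change of -1.28 ± 0.63 (edgeR, adjusted p = 0.363), with a wide spread among cLP libraries.

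Among genes of mitotic exit and chromosome segregation, Ube2c (ENSMUSG00000001403, chr2:164769898-164778822, plus strand) had lowest, median and highest values of 67.5, 104 and 154 CPM in cLP and 140.4, 192 and 317 CPM in spleen. Just 1 cLP library, the highest, reached into the spleen range, and the log2 fold change was -1.09 ± 0.24 (edgeR, adjusted p = 0.0214). Birc5 (ENSMUSG00000017716, chr11:117849251-117855743, plus strand) had 144, 191 and 347 CPM in cLP and 287, 462 and 595 CPM in spleen, and it fell with a log2 fold change of -1.15 ± 0.29 (edgeR, adjusted p = 0.0444), with 1 cLP library inside the spleen range. Mki67 (ENSMUSG00000031004, chr7:135689784-135716361, minus strand), whose protein Ki-67 coats mitotic chromosomes and marks dividing cells, had 114, 129.9 and 232 CPM in cLP and 227, 259 and 336 CPM in spleen. Just 1 cLP value, the highest, lay within the spleen range, and the log2 fold change was -0.93 ± 0.20 (edgeR, adjusted p = 0.0197). Cdc20, the activator of the anaphase-promoting complex, had 0.924, 14.9 and 45.6 CPM in cLP and 4.8, 41.4 and 97.9 CPM in spleen, and with a spread of this size -1.54 ± 0.89 did not pass (edgeR, adjusted p = 0.477). Likewise Top2a, the topoisomerase that untangles chromosomes, had -0.80 ± 0.25 (edgeR, adjusted p = 0.101) with 68.1, 138 and 145 CPM in cLP and 116, 218 and 301 CPM in spleen. For Stmn1 the values were 429, 559 and 809 CPM in cLP and 708, 1049 and 1149 CPM in spleen, with -0.76 ± 0.28 (edgeR, adjusted p = 0.17).

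Besides the B-type cyclins, Bub1b and Prc1 had all 6 cLP libraries below all 6 spleen libraries, so that 4 members did, against 1.16% of all genes. Bub1b, which encodes the spindle checkpoint kinase BUBR1, had 0.37, 8.15 and 15.6 CPM in cLP and 18, 26.5 and 49.2 CPM in spleen, but its log2 fold change of -2.00 ± 0.81 did not pass (edgeR, adjusted p = 0.226). Prc1, which bundles microtubules of the central spindle, had 6.66, 53.1 and 72.6 CPM in cLP and 97.4, 103 and 172 CPM in spleen, with -1.37 ± 0.80 (edgeR, adjusted p = 0.48). Tpx2, a spindle assembly factor, and Nusap1, a spindle-associated protein, came just short of the threshold with -1.30 ± 0.36 and -1.17 ± 0.31 (edgeR, adjusted p = 0.0602 and 0.0558). By role, the median log2 fold change was -1.42 over CDK1 and its cyclins (4 genes), -1.37 over the mitotic kinases Aurka, Aurkb, Plk1 and Nek2, -1.31 over checkpoint and anaphase genes (4 genes) and -0.85 over centromere and kinetochore genes (3 genes).

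**Figure D3:**
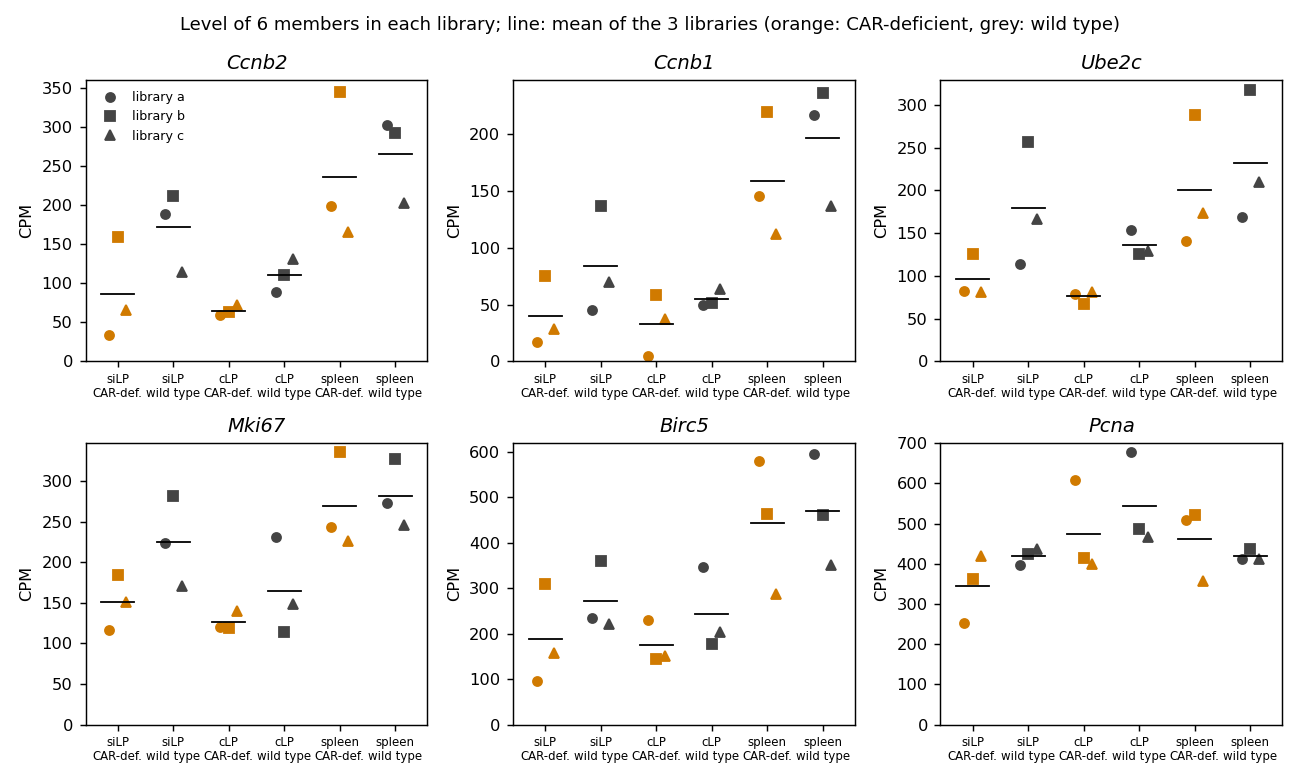
Level of 5 mitotic members and Pcna in each library in CPM (vertical axes from 0), by group along the horizontal axis, with CAR-deficient libraries in orange left of wild type libraries in grey; lines are means of the 3 libraries. Ccnb2 and Ccnb1 lie lower in every cLP library than in every spleen library, and Pcna stays between 252 and 679 CPM in all 18.

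S phase members had smaller fold changes at the median, and the difference between the classes was not tested. Mcm5, a subunit of the replicative helicase and the S phase member with the smallest p, had 15.8, 31.5 and 46 CPM in cLP and 40.0, 64.6 and 93.4 CPM in spleen. Its log2 fold change of -1.07 ± 0.32 did not pass (edgeR, adjusted p = 0.0869), and the organs overlapped. Mcm2, of the same ring, had 18.7, 38.3 and 62.9 CPM in cLP and 45.8, 59.1 and 86.2 CPM in spleen, with -0.80 ± 0.30 (edgeR, adjusted p = 0.189). All 8 helicase genes were below 0, with a median of -0.75. So were all 4 genes of nucleotide synthesis, again with a median of -0.75. Of these, Tyms had 75.7, 117 and 333 CPM in cLP and 166, 230.2 and 281 CPM in spleen, where 1 cLP library exceeded every spleen library, and -0.74 ± 0.23 (edgeR, adjusted p = 0.105). Rrm2 had 91.2, 132 and 194 CPM in cLP and 176, 232 and 503 CPM in spleen, with -1.15 ± 0.46 (edgeR, adjusted p = 0.215).

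Pcna (ENSMUSG00000027342, chr2:132249162-132253314, minus strand) was the exception, at 399, 477 and 679 CPM in cLP and 357, 424 and 521 CPM in spleen. It was the only member above 0, with 0.20 ± 0.18 (edgeR, adjusted p = 0.691), and the organs overlapped. In wild type cells alone, every cLP library lay above every spleen library. The G1/S cyclins did not pass, and of them Ccne1 had 4.31, 13.7 and 26.5 CPM in cLP and 24.1, 30.5 and 53.1 CPM in spleen (-1.32 ± 0.66, edgeR, adjusted p = 0.378). Ccne2 had 9.61, 19 and 25.7 CPM in cLP and 3.53, 28.7 and 33.3 CPM in spleen (-0.32 ± 0.41, edgeR, adjusted p = 0.835). Ung was low throughout, at 0.619, 1.23 and 1.72 CPM in cLP and 0.368, 1.5 and 2.74 CPM in spleen (-0.34 ± 0.56, edgeR, adjusted p = 0.875).

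The 5 calls in cLP changed in number when libraries were left out. Without the 3 spleen libraries highest in erythroid markers, an alternative added after the data were seen, edgeR called 0 members (8 had an unadjusted p under 0.05 and lay lower), 41 of 44 lay below 0, and the medians were -0.84 over mitotic and -0.45 over S phase members. That fit leaves 1 spleen wild type and 2 spleen CAR-deficient libraries, and the lone library is assumed to vary like the other groups. The 5 genes then had log2 fold changes between -1.64 and -0.74 and adjusted p between 0.399 and 0.557. Without cLP wild type b, spleen CAR-deficient b or spleen wild type b alone, only Ccnb2 was called. The count was 2 without cLP CAR-deficient b, cLP wild type c or spleen wild type a, and 3 without spleen CAR-deficient a or spleen wild type c. DESeq2 called 12 members, 2 of them S phase genes (Mcm5 and Tyms), and limma's voom with quality weights called 20, of which 5 were S phase genes. Without the 6 a libraries, edgeR called 14, of which 3 were S phase genes. Epithelial markers summed to 20.1 to 265 CPM in cLP and 7.7 to 13 CPM in spleen, and the part of epithelial and erythroid RNA in the values was not tested.

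The balance of the classes can be set out per library as the mean log2 CPM of the S phase members minus that of the mitotic members. It was 0.10 ± 0.30 in siLP CAR-deficient and -0.01 ± 0.53 in siLP wild type cells, 0.12 ± 0.59 in cLP CAR-deficient and 0.11 ± 0.17 in cLP wild type cells, and -0.44 ± 0.07 in spleen CAR-deficient and -0.40 ± 0.13 in spleen wild type cells (SD, n = 3 each). Gut libraries thus leaned further towards S phase members than spleen libraries did, by these averages and with no test. The ranges overlapped, since the 12 gut libraries ran from -0.48 to 0.70 and the 6 spleen libraries from -0.55 to -0.31, with cLP CAR-deficient b and siLP wild type b within the spleen range. Library a had the highest balance in each gut group, and without the a libraries the means were -0.03, -0.16 and -0.45 in CAR-deficient and -0.32, 0.03 and -0.44 in wild type cells of siLP, cLP and spleen. Without Rrm2, Tk1, Ccna2, Stmn1, Mki67 and Top2a, the 6 members least clearly tied to a single phase, they were 0.31, 0.32 and -0.29 in CAR-deficient and 0.19, 0.36 and -0.25 in wild type cells, in the same organ order. Within groups both classes moved together, with deviations from the group mean of the same sign in 16 of 18 libraries.

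**Figure D4:**
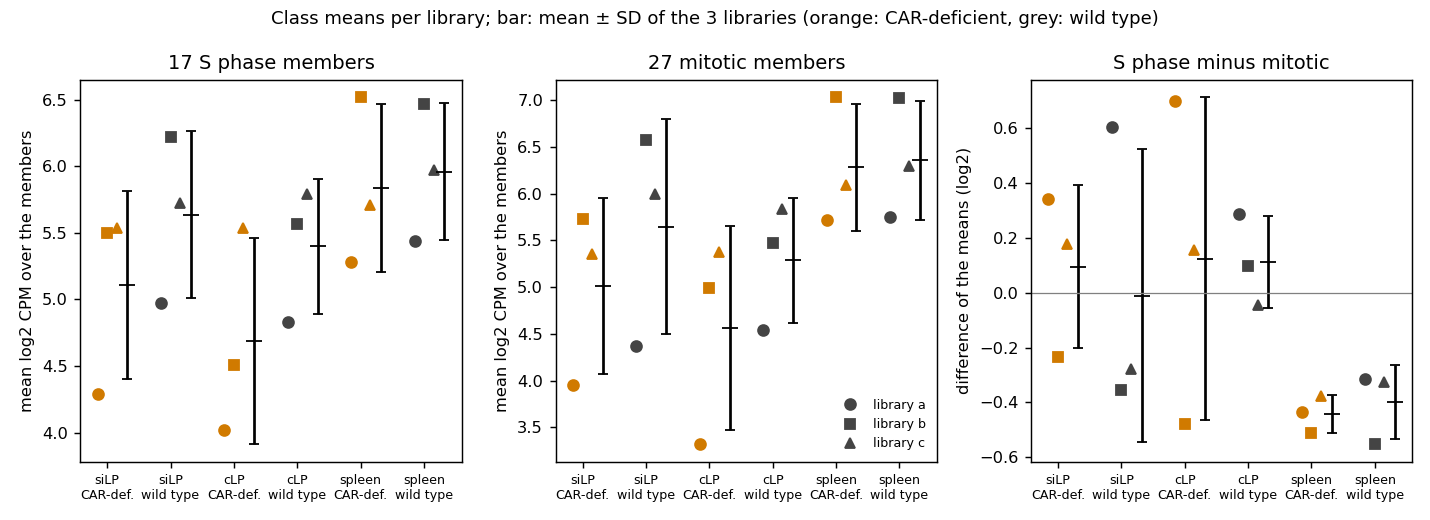
Mean log2 CPM over the 17 S phase members, over the 27 mitotic members, and the difference S phase minus mitotic, per library and group (CAR-deficient in orange, wild type in grey; bars are mean ± SD of 3 libraries). The difference is -0.55 to -0.31 in spleen libraries and -0.48 to 0.70 in gut libraries.

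In siLP against spleen, which shares its spleen libraries with the colon comparison, no member passed. edgeR called 0 of 44, with 15 at an unadjusted p under 0.05 (4 S phase and 11 mitotic, all lower), where 0.0403% of all genes were called lower and 3.64% had an unadjusted p under 0.05 in that direction. DESeq2 called 6 (Tyms, Ccnb1, Ccnb2, Birc5, Cenpa and Stmn1) and voom 0. edgeR called 3 without siLP CAR-deficient b, and 2 and 1 without cLP CAR-deficient a and cLP wild type a, which enter only the shared estimate of spread. No member had all its siLP below all its spleen libraries (0.37% of all genes). Again 43 of 44 members were below 0, against 50.6% of all genes, with medians of -0.72 over mitotic and -0.58 over S phase members. Without the 3 spleen libraries highest in erythroid markers the medians were -0.39 and -0.23. The smallest adjusted p was that of Cenpa, at 87.5, 143 and 248 CPM in siLP and 193, 275 and 326 CPM in spleen, with a log2 fold change of -0.91 ± 0.23 (edgeR, adjusted p = 0.0975). Stmn1 had 161, 589 and 769 CPM in siLP (-0.96 ± 0.28, edgeR, adjusted p = 0.178). Ccnb1 had 17.3, 57.4 and 137 CPM in siLP and -1.61 ± 0.49 (edgeR, adjusted p = 0.211). Ung alone was above 0, at 0.856, 2.43 and 4 CPM in siLP and 0.50 ± 0.55 (edgeR, adjusted p = 0.865).

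Between the gut sites, siLP against cLP, edgeR, DESeq2 and voom called 0 members. There 0% of all genes were called lower by edgeR, and the share called higher is not given. Only Pcna had an unadjusted p under 0.05 by edgeR, with 252, 409 and 438 CPM in siLP and 399, 477 and 679 CPM in cLP (-0.42 ± 0.18, adjusted p = 0.499), where 6.05% of all genes were lower at that level. The log2 fold change was above 0 for 34 of 44 members, with medians of 0.39 over mitotic and 0.17 over S phase members. The 10 members below 0 (51.4% of all genes) became 19 without siLP wild type b, 17 without siLP CAR-deficient b, and 6 without siLP wild type a or cLP CAR-deficient c.

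**Figure D5:**
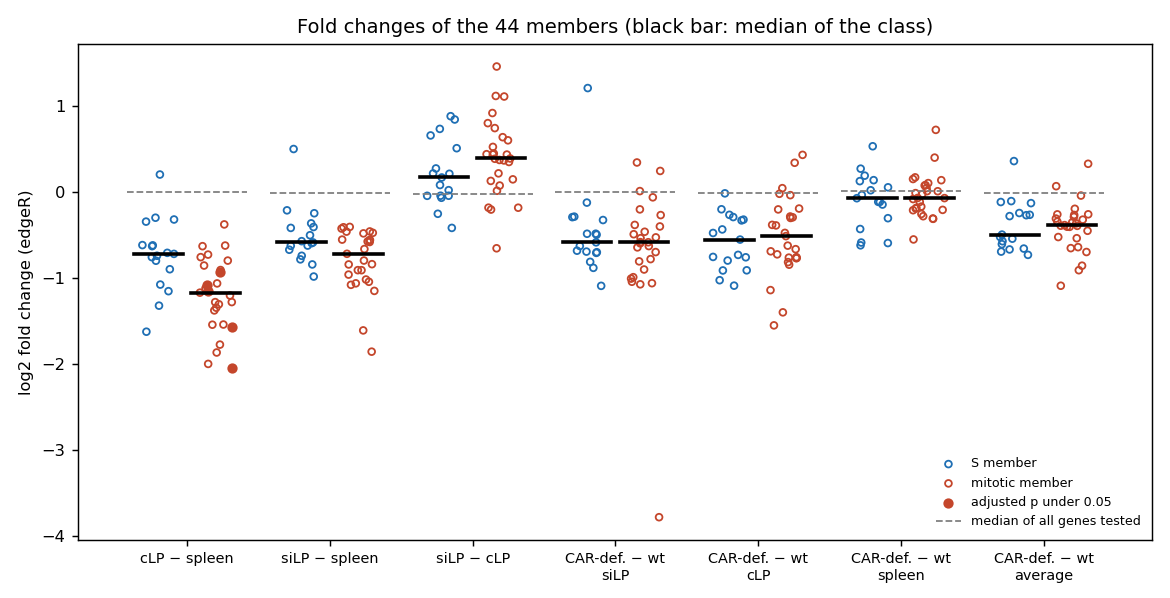
Log2 fold change (vertical axis) of each S phase and mitotic member in the 3 organ comparisons and the 4 genotype comparisons; black bars are class medians, dashed lines medians of all 14876 genes, and filled points passed the adjusted threshold of 0.05. The 5 filled points are mitotic members in cLP against spleen.

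Within each genotype the organ difference had the same direction for most members, with fewer libraries. In CAR-deficient cells, cLP against spleen gave medians of -1.34 over mitotic and -1.14 over S phase members, and 22 members had all 3 cLP below all 3 spleen libraries, against 6.43% of all genes. In wild type cells the medians were -0.89 and -0.45, and 16 members did so, against 6.9%. edgeR called 0 members in either genotype, against 0.0202% and 0.00672% of all genes called lower, with 14 in CAR-deficient and 7 in wild type cells lower at an unadjusted p under 0.05 (3.15% and 1.89% of all genes). DESeq2 called 6 in CAR-deficient and 0 in wild type cells, and voom 5 and 8. For siLP against spleen the medians were -1.06 and -0.78 in CAR-deficient and -0.52 and -0.30 in wild type cells, with 16 and 5 members lower without overlap, against 5.18% and 5.06% of all genes. There edgeR called 0 in either genotype (0.0134% and 0% of all genes), with 13 and 0 lower at an unadjusted p under 0.05 (3.03% and 1.36% of all genes), DESeq2 called 3 in CAR-deficient and 0 in wild type cells, and voom 0 in both. Without siLP CAR-deficient b, edgeR called 2 in CAR-deficient cells, and without spleen wild type b, 25 in place of 39 members were below 0 in wild type cells. For cLP against spleen in CAR-deficient cells, 1 was called when siLP CAR-deficient a, siLP CAR-deficient b or cLP wild type a was left out. Going the other way without overlap, Pcna in wild type cells had 466 to 679 CPM in cLP and 411 to 436 CPM in spleen. So did Ung in CAR-deficient cells, with 2.72 to 4 CPM in siLP and 0.987 to 1.79 CPM in spleen. The share of all genes higher without overlap is not given for these comparisons.

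CAR-deficient cells had lower values than wild type cells for most members, and none passed the test. Averaged over the organs, edgeR called 0 of 44, where 0.00672% of all genes were called lower, and DESeq2 and voom called 0. By edgeR 5 members had an unadjusted p under 0.05, 3 of them S phase genes (Tyms, Gins2 and Mcm2) and 2 mitotic (Ube2c and Ccnb2), all lower, against 2.73% of all genes in that direction. The log2 fold change was below 0 for 41 of 44 members, against 50.9% of all genes, with medians of -0.49 over S phase and -0.38 over mitotic members. Leaving out each library in turn moved these medians between -0.56 and -0.28. The smallest p-values were those of Ube2c, with -0.65 ± 0.19 (edgeR, adjusted p = 0.464), and Tyms, with -0.61 ± 0.19 (adjusted p = 0.525). Gins2, of the helicase complex that opens DNA, had -0.66 ± 0.23 (edgeR, adjusted p = 0.625), and Mki67 had -0.34 ± 0.16 (adjusted p = 0.859).

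In siLP, edgeR called 0 members, where 0% of all genes were called lower, voom called 0 and DESeq2 called 1, Nek2. Of the 44, 40 were below 0 (50% of all genes), with medians of -0.58 in both classes, and 5 had an unadjusted p under 0.05 by edgeR, all lower (2.45% of all genes). Myeloid markers summed to 54.1 to 69.2 CPM in CAR-deficient and 84.4 to 159 CPM in wild type siLP libraries, and their part was not tested. Nek2 had 14, 7 and 3 counts in CAR-deficient libraries a, b and c, against 46, 207 and 155 in wild type libraries. Every CAR-deficient library lay below every wild type library, and the log2 fold change was -3.78 ± 1.13 (edgeR, adjusted p = 1). Mcm2 had 23.9, 25.3 and 23.8 CPM in CAR-deficient libraries and 30.0, 82.8 and 42.6 CPM in wild type libraries, again without overlap (-1.09 ± 0.43, edgeR, adjusted p = 1). Altogether 7 members were lower without overlap, against 4.52% of all genes: Ccne2, Mcm2, Cdc45, Tyms, Rrm1, Aurka and Nek2. Ung was the 1 member higher without overlap, against 3.8% of all genes, at 2.86, 4 and 2.72 CPM in CAR-deficient and 0.856, 2.13 and 1.15 CPM in wild type libraries (1.21 ± 0.79, edgeR, adjusted p = 1). Without wild type library b, which was highest of its group for 38 members, 29 members were below 0 and both medians were -0.28. Without CAR-deficient library a, whose Nr1i3 count is high, the medians were -0.32 over S phase and -0.43 over mitotic members.

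In cLP, edgeR, DESeq2 and voom called 0 members, where 0% of all genes were called lower by edgeR. By edgeR 2 members had an unadjusted p under 0.05, Tyms and Ube2c, both lower (0.887% of all genes). Tyms had 75.7, 90.1 and 113 CPM in CAR-deficient libraries a, b and c and 333, 139.7 and 121 CPM in wild type libraries. No value overlapped, and the log2 fold change was -1.09 ± 0.33 (edgeR, adjusted p = 1). Ube2c had 78.6, 67.5 and 81.6 CPM in CAR-deficient and 154, 126 and 129 CPM in wild type libraries, also apart, with -0.84 ± 0.34 (edgeR, adjusted p = 1). They belonged to 9 members that were lower without overlap, against 3.32% of all genes, with Gins2, Tk1, Cdk1, Ccna2, Ccnb2, Nusap1 and Top2a. Of the 44, 41 were below 0 (51.2% of all genes), with medians of -0.55 over S phase and -0.51 over mitotic members. Epithelial markers summed to 43.2 to 265 CPM in these CAR-deficient libraries and 20.1 to 39.5 CPM in the wild type ones, and their part in the values was not tested.

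In spleen the genotypes lay closest. edgeR called 0 members, DESeq2 and voom 0, and 0% of all genes were called lower. No member had an unadjusted p under 0.05 (0.874% of all genes, lower), and none was apart without overlap (3.09% of all genes lower and 3.23% higher). Just 26 of 44 were below 0 (48.2% of all genes), with medians of -0.07 in both classes. The S phase and mitotic members with the smallest p were Gins2, at 30.9, 53.7 and 33.7 CPM in CAR-deficient and 53.2, 62.1 and 43.9 CPM in wild type libraries (-0.43 ± 0.39), and Kif11, the spindle motor, at 13.5, 44.6 and 30.2 CPM in CAR-deficient and 38.5, 51.7 and 39.2 CPM in wild type libraries (-0.55 ± 0.45). The number below 0 was 40 without CAR-deficient b, 17 without CAR-deficient c and 12 without wild type b, so the spleen count turned on single libraries. The difference of the genotype effect between organs was tested directly. In any of the 3 pairs edgeR, DESeq2 and voom called 0 members, where 0% of all genes were called lower by edgeR. By edgeR only Nek2 had an unadjusted p under 0.05, for siLP minus spleen (-3.86 ± 1.47) and siLP minus cLP (-4.21 ± 1.48), against 1.36% and 1.57% of all genes in that direction, and none for cLP minus spleen (0.504%). For siLP minus spleen 39 members were below 0 (52.5% of all genes), and 23 without spleen CAR-deficient b. For cLP minus spleen 37 were below 0 (52.2%), and for siLP minus cLP 23 (49.6%), the last with 10 to 35 when single libraries were left out. A genotype difference that is smaller in spleen was therefore not shown for any member.

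Other genes of the same pathways were counted from 4 lists. In cLP against spleen, 52 of 53 other mitosis genes were below 0 (median -0.85), against 49.8% of all genes. EdgeR called 1 lower, Ndc80, which encodes an outer kinetochore subunit, where 0.35% of all genes were called lower. At an unadjusted p under 0.05, 17 lay lower, against 4.67% of all genes. DESeq2 called 9 lower, voom 22, and edgeR without the 6 a libraries 14. Ndc80 had 27.7 ± 8.86 and 52 ± 4.08 CPM in CAR-deficient and wild type cLP cells and 87.5 ± 33.8 and 87.1 ± 23.7 CPM in those of spleen (SD, n = 3 each), with -1.20 ± 0.31 (edgeR, adjusted p = 0.0444). Leaving out any 1 of the cLP or spleen libraries ended that call, with log2 fold changes between -1.30 and -1.03 and adjusted p between 0.0507 and 0.126. It also ended without siLP CAR-deficient b, siLP wild type b or siLP wild type c (adjusted p between 0.0542 and 0.0578), without TMM scaling (-1.26, adjusted p = 0.0729) and without the 3 spleen libraries highest in erythroid markers (-0.94, adjusted p = 0.557). Of 50 other replication genes, 41 were below 0 (median -0.50), and edgeR called 0, with 11 at an unadjusted p under 0.05, DESeq2 2 and voom 4. Of 29 tested G1 regulators and E2F, MYC and DREAM factors, 21 were below 0 (median -0.21) and edgeR called 0. At an unadjusted p under 0.05 by edgeR, 5 of them lay lower and 1 higher, while DESeq2 called 3 and voom 4. In siLP against spleen, edgeR called 0 of the 53 mitosis genes (10 at an unadjusted p under 0.05, DESeq2 1, voom 0), of which 50 were below 0, and 0 of the 50 replication genes (8 at an unadjusted p under 0.05, DESeq2 1, voom 0), of which 43 were below 0. Of all genes, 50.6% were below 0 there and 3.64% lay lower at an unadjusted p under 0.05.

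Several genes that restrain division rose in gut cells. Of 22 cell cycle inhibitors and growth arrest genes, edgeR called 6 higher in cLP than in spleen and 4 higher in siLP than in spleen, against 2.72% and 0.807% of all genes called higher. Others of the list went the other way, with 8 below 0 in cLP and 7 in siLP, against 49.8% and 50.6% of all genes. At an unadjusted p under 0.05 by edgeR, 1 and 2 lay lower, against 4.67% and 3.64% of all genes. Tob1, an antiproliferative partner of the CCR4-NOT deadenylase, had lowest, median and highest values of 21.4, 61.7 and 79.7 CPM in siLP, 69.9, 91.6 and 110.4 CPM in cLP and 6.63, 23.9 and 31.4 CPM in spleen. Every cLP library lay above every spleen library, and siLP overlapped spleen. The organs differed with 2.19 ± 0.28 in cLP (edgeR, adjusted p = 0.000329) and 1.42 ± 0.27 in siLP (adjusted p = 0.0152). Tob2, its relative, rose with 1.68 ± 0.28 and 1.36 ± 0.28 (edgeR, adjusted p = 0.00364 and 0.0256), and Gadd45b, a stress-inducible growth arrest gene, with 2.19 ± 0.40 and 2.43 ± 0.40 (adjusted p = 0.00627 and 0.00445). Cdkn1a, which encodes the CDK inhibitor p21, rose in cLP with 1.73 ± 0.36 (edgeR, adjusted p = 0.0149). Btg2, an antiproliferative gene of the same family as Tob1, rose in both gut sites. Alone of the 4 lists, it was also called higher in CAR-deficient cells averaged over the organs, where 0.00672% of all genes were called higher. Without the 3 spleen libraries highest in erythroid markers, which leaves 1 spleen wild type library, 2 of the list were called in cLP, Tob1 and Gadd45b, and 1 in siLP, Gadd45b. In that fit the cLP log2 fold changes were 2.07 for Cdkn1a and 1.63 for Tob2 (edgeR, adjusted p = 0.0559 and 0.195). Those in siLP were 1.31 for Tob2 and 1.09 for Tob1 (edgeR, adjusted p = 0.598 and 0.509). The siLP call of Tob1 also ended without siLP wild type c, spleen CAR-deficient b or c, or spleen wild type b (log2 fold changes 1.23 to 1.41, edgeR, adjusted p at most 0.0625). That of Tob2 ended without siLP CAR-deficient a, any siLP wild type library, or any spleen library except CAR-deficient a (1.20 to 1.40, adjusted p at most 0.117). That of Cdkn1a in cLP ended without spleen CAR-deficient c or spleen wild type c (1.65 and 1.73, adjusted p at most 0.0545).

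Btg2 had 649.6, 374 and 396 CPM in CAR-deficient siLP libraries a, b and c and 189, 117 and 130.4 CPM in wild type ones. In cLP the values were 291, 464 and 491 CPM in CAR-deficient and 137, 124 and 122 CPM in wild type libraries, and in spleen 93.2, 136 and 181 CPM in CAR-deficient and 29.6, 49.8 and 58.3 CPM in wild type libraries. The genotypes did not overlap in any organ, where 3.8% of all genes in siLP and 3.23% in spleen were higher without overlap. Within siLP, cLP or spleen alone, however, edgeR called 0 genes of this list between genotypes, so Btg2 passed only in the average over organs. Against spleen, Btg2 had 1.73 ± 0.24 in siLP and 1.54 ± 0.24 in cLP (edgeR, adjusted p = 0.00102 and 0.00164). The genotype average was 1.66 ± 0.19 (edgeR, adjusted p = 0.00362), and without the 3 erythroid-high spleen libraries, with 1 spleen wild type library left, it was 1.54 with adjusted p = 0.495. Without them Btg2 had 1.55 in siLP and 1.36 in cLP against spleen (edgeR, adjusted p = 0.112 and 0.149).

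Among the G1 regulators and inhibitors always reported, Foxm1, a driver of G2 and mitosis genes, had 5.1 ± 3.67, 4.27 ± 1.2 and 12.2 ± 0.854 CPM in CAR-deficient siLP, cLP and spleen and 5.85 ± 6.9, 6.63 ± 2.7 and 10.9 ± 2.05 CPM in wild type cells (SD, n = 3 each). Its log2 fold change in cLP against spleen was -1.12 ± 0.78 (edgeR, adjusted p = 0.589). The cyclin D genes of G1 stood at 373 ± 48.6, 358 ± 138 and 406 ± 71.1 CPM for Ccnd2 in CAR-deficient siLP, cLP and spleen and 354 ± 127, 363 ± 98.5 and 325 ± 69.2 CPM in wild type cells. Ccnd3 had 131 ± 78.5, 102 ± 87.9 and 165 ± 49.3 CPM in CAR-deficient and 109.9 ± 82.3, 113 ± 98.7 and 129 ± 52.9 CPM in wild type cells in the same organ order. Myc, a driver of growth, was at 26.1 ± 5.88, 23 ± 8.89 and 21.7 ± 9.33 CPM in CAR-deficient and 44.3 ± 11.6, 26 ± 18.9 and 17.9 ± 8.42 CPM in wild type cells. Cdkn1b, which encodes the CDK inhibitor p27, was at 25.2 ± 10.5, 15.8 ± 8.03 and 14.9 ± 7.75 CPM in CAR-deficient and 23.4 ± 9.47, 17 ± 6.2 and 18.9 ± 3.26 CPM in wild type cells. Between genotypes, averaged over organs, edgeR, DESeq2 and voom called 0 genes of the replication, mitosis and G1 lists, with 39 of 50, 47 of 53 and 16 of 29 below 0, against 50.9% of all genes. At an unadjusted p under 0.05 by edgeR, 2 replication and 3 mitosis genes lay lower, against 2.73% of all genes, and 1 G1 gene lay higher.

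Among the genes of these lists with the smallest p were Dut, which removes dUTP (-0.35 ± 0.16), Cdca8 of the chromosomal passenger complex (-0.71 ± 0.26) and Spc24 of the outer kinetochore (-0.47 ± 0.19), and Rbl2, the DREAM pocket protein p130 (0.46 ± 0.19), and the activator E2f2 (-0.72 ± 0.36). By edgeR their adjusted p lay between 0.684 and 0.889.

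Counts from 14 members can include reads of a gene on the opposite strand, since the library kit keeps no strand and their exons overlap exons of another gene. Among those named with values these are Ccne2 with Ints8, Gins2 with Gse1, Ccna2 with Exosc9, Nek2 with an antisense gene, Cdc20 with Elovl1, Ube2c with Tnnc2, Nusap1 with Oip5 and Prc1 with Rccd1. Reads from such overlaps cannot be assigned to a gene by strand.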

How the data were processed

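RNA-seq was made from about 500 sorted cells per library with the SMART-Seq v4 and NEBNext Ultra II kits, per the labels' protocols, a chemistry that keeps no strand. The deposited table holds estimated counts per Ensembl gene, per the file headers. Salmon, DESeq2 and mm10 are listed in the submitters' processing notes, without versions or roles, and the annotation is not given in the sources used here. A further 36 columns (abundance and length) were not used, since no column carries a replicate number that would tie them to 1 library. Symbols and positions came from GENCODE vM21 (GRCm38).

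Estimated counts were rounded. Genes were kept by edgeR's filterByExpr (14876), scaled by TMM and fitted as 6 group means over 18 libraries with the quasi-likelihood model. The 14 comparisons were tested two-sided, with Benjamini-Hochberg adjustment across all genes and 0.05 as threshold. Standard errors were derived as |log2 fold change| divided by the root of the F statistic. Total counts ran from 19605135 to 25436389. CPM use the totals over the 14876 kept genes, scaled by TMM, and log2 CPM a prior count of 2. A floor of 3 counts is 0.108 to 0.185 CPM per library and covers counting error only. To order genes by level, CPM were divided by the summed exon length in GENCODE vM21. Software was DESeq2 1.42.0, limma 3.58.1 and edgeR 4.0.16 under R 4.3.3. The steps were tested on simulated data for the cLP genotype comparison, cLP against spleen and the genotype average, in that order. Of 50 genes changed 2-fold, edgeR called 0, 5 and 16 in the right direction, and of 50 changed 4-fold, 20, 29 and 45. Among the unchanged genes, edgeR called 4, 3 and 9. The simulated libraries varied independently, so spread shared between libraries of different groups was not part of this test. In this setting, changes of 2-fold or less can thus often go uncalled.

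The members, lists, tests and naming rule were chosen with earlier results of these data known. Values by organ or library were given for 16 preset members, members past the threshold (at most 10 a comparison) and, per class, the member with the smallest p in each genotype comparison. Each pathway list gave up to 4 genes past the threshold a comparison, otherwise the 2 with the smallest p in the genotype average, and Btg2, Cdkn1a, Cdkn1b, Myc, Ccnd2, Ccnd3 and Foxm1 in any case. Cenpa, Mcm5, Bub1b, Prc1, Tpx2 and Nusap1 were added after their values were seen. Alternatives were other scaling and tools, no filter, a replicate block by column ending, and leaving out libraries. Some items that the naming rule or marker lists would give are not reported here.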

Additional observations from a re-analysis of the deposited data

How the results depend on the processing

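DESeq2 called 12 members lower in cLP against spleen, 6 in siLP against spleen, 3 and 6 in the siLP and cLP comparisons with spleen within CAR-deficient cells, and 1 in the siLP genotype comparison. Limma's voom called 20 in cLP against spleen, and 5 in CAR-deficient and 8 in wild type cells alone. Without the 6 a libraries, 14 were called in cLP against spleen, and 6 members were below 0 in siLP against cLP. Without TMM scaling 5 were below 0 there. Without the 3 spleen libraries highest in erythroid markers, an alternative chosen after seeing the data that leaves 1 spleen wild type library, assumed to vary like the other groups, edgeR called 0 members in cLP against spleen, with 8 at an unadjusted p under 0.05, and the signs of Ung in siLP (-0.022) and Ccne2 in cLP (0.046) against spleen were reversed. Ung in cLP against spleen ranged from -0.56 to 0.0049 when single libraries were left out. The cause of these changes was not tested.

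Leaving out 1 library at a time, the members called ranged from 1 to 6 in cLP against spleen, 0 to 3 in siLP against spleen, 0 to 2 in siLP and 0 to 1 in cLP against spleen in CAR-deficient cells. Members below 0 ranged from 12 to 40 for the spleen genotype comparison, 6 to 19 for siLP against cLP, 25 to 43 for siLP against spleen in wild type cells, 23 to 43 for the genotype effect in siLP minus spleen and 10 to 35 for siLP minus cLP.

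The columns carry no replicate numbers. Libraries with the same column ending deviated from their group means together in 41 of 45 pairs (correlation over 0.1, median 0.205), against 7 of 90 other pairs (median -0.125), a hint from the data and not from the design. Deviations from a group mean sum to 0, so the other pairs are no independent standard. Whether the libraries of an ending share an animal cannot be told. With the column ending as a replicate block, edgeR called 10 members in cLP against spleen, 2 in siLP against spleen and 3 in cLP against spleen in CAR-deficient cells. The other counts over members stayed within 1.5 times under the 26 alternatives. Ung and Nek2, the members of lowest level, had 8 to 95 and 2 to 207 counts per library, and the part of depth in their values was not tested. The planned use of TPM in place of CPM was not run, since those columns were left out.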
